A study of Zea mays with 9 samples.

Results

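The basic leucine zipper (bZIP) transcription factors of maize, with their TGA class, were described here in leaves treated with salicylic acid (SA) or with the peptide Zip1. A gene belonged to the set if its annotation listed 1 of the Pfam domains PF00170 or PF07716 (both bZIP domains) or PF14144, the DOG1 domain that TGA factors carry beside the zipper. This rule took 124 of the 39755 genes in the count table, and it used no measured value. Of these, 116 had a bZIP domain and 24 formed the TGA subgroup, defined by the DOG1 domain or by a TGA protein name. The TGA subgroup divided into 16 genes with both domains, called the TGA class below, and 8 genes with a DOG1 domain and no bZIP domain. For these 8 the annotation went against the name of a bZIP factor, and they are kept apart as genes with a DOG1 domain only. The protein entry given for a gene names the described protein it resembles most, which often belongs to another plant, so that it does not name the maize gene itself. For 28 of the 124 genes no such protein entry was given. By entry, the others fell into 14 genes of the abscisic acid class, 3 of the ER stress class, 11 of the G-box class, 5 of the HY5 class, 9 of the C class, 6 of the S class, 17 of the I class and 1 of the FD type, with 10 under other entries and 24 bZIP genes under none.

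The leaves came from the maize cultivar Golden Bantam, with no mutant or transgene named in the labels. Seedlings grew for 8 days, leaf 2 was cut off, and a solution was drawn into it under vacuum at 60 mbar, so that all groups share the cut and the infiltration. The SA group received 2 mM salicylic acid, a hormone of the response to pathogens. The Zip1 group received 5 µM Zip1, a maize signalling peptide released from a larger precursor. The mock group received water with 0.1% DMSO, and the labels leave unsaid whether DMSO was in the other solutions too. RNA was taken 6 h after infiltration, with 3 libraries in each of the 3 groups. The labels do not say that the libraries of a group came from separate plants or batches of plants, so p-values measure the spread between these libraries, which may be in part technical.

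A bZIP factor binds DNA as a dimer: the zipper pairs 2 proteins and the basic stretch beside it reads the DNA. TGA factors bind as-1 and ocs elements in promoters. In Arabidopsis and rice they recruit the SA receptor NPR1 and its relatives to defence genes, so that their activity depends on bound partners and redox state as well as on transcript level. Other bZIP classes act in the response to abscisic acid (ABI5 and the ABF factors), in light signalling (HY5 and G-box factors), in stress of the endoplasmic reticulum (ER), and in sugar, amino acid and seed storage control (the C and S classes).

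Each library held between 28840453 and 38794412 counts over all genes, and 0.180% to 0.234% of them fell on the 124 genes. Leaf markers were abundant in every library: genes of the light-harvesting chlorophyll-binding proteins took 3.74% to 8.36% of the counts and the Rubisco small subunit 0.733% to 1.46%. Of the 124 genes, 83 had enough counts to be tested, among them 10 of the TGA class and 5 with a DOG1 domain only. The other 41 each had at most 46 counts over all 9 libraries together, and 9 of these had none, which included the gene whose entry is the endosperm factor Opaque-2 (Zm00001eb301570). Normalised counts below are counts scaled to library size by TMM factors, and levels compared between genes are given as CPM per kilobase, that is, counts scaled to a common library total and divided by gene length. RNA came from whole leaf tissue, so that fewer cells of a type and less RNA per cell cannot be told apart.

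Few bZIP genes were called in either treatment, in shares near or under those of all tested genes. In edgeR's quasi-likelihood test with Benjamini-Hochberg adjustment over all 23077 genes tested, and a call at an adjusted p under 0.05, SA gave 3 higher and 0 lower of the 83 tested bZIP genes. That is 3.61%, beside 6.22% of all tested genes, of which 5.11% were called higher and 1.11% lower. At an unadjusted p under 0.05 there were 18 of the 83, beside 4371 of the 23077. The DESeq2 Wald test called 6 higher and 1 lower, beside 1707 higher and 646 lower of the 23077. The replicate number was also added to the fit as a block over all 9 libraries, which pairs SA, mock and Zip1 libraries by number. Then 5 were called, beside 2220 of all genes. Zm00001eb309420 (log2 fold change −0.52, adjusted p 0.0450) and Zm00001eb387600 (−1.49, adjusted p 0.0372) were added as lower. Neither has a protein entry. The 3 SA libraries lay wholly above or wholly below the 3 mock libraries for 23 of the 83 genes (27.7%), against 23.9% of all tested genes. The median log2 fold change with SA was 0.10 for the bZIP genes and −0.04 for all tested genes.

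Zip1 against the same mock libraries gave 1 higher and 0 lower of the 83 bZIP genes (1.2%). The background was 0.884% of all tested genes, 0.823% higher and 0.0607% lower. At an unadjusted p under 0.05 there were 6, beside 2652 of the 23077. DESeq2 called 1 higher and 1 lower, beside 682 higher and 200 lower of the 23077. Groups did not overlap for 12 genes (14.5%), against 17.7% of all tested genes. The direct comparison of Zip1 with SA gave 0 higher and 2 lower with Zip1 (2.41%). At an unadjusted p under 0.05 there were 10, beside 4019 of the 23077. By DESeq2 1 was higher and 3 were lower, beside 787 higher and 1133 lower of the 23077. Of all tested genes, 4.11% were called in that comparison, 1.56% higher and 2.56% lower, and the groups did not overlap for 15 bZIP genes (18.1%) against 23.5% of all. These shares lie near or under the background and are no result about the family. The log2 fold change was smaller than 0.5 in size for 54 of the 83 genes with SA and for 63 with Zip1, where the median standard error was 0.33 in both comparisons.

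**Figure D1:**
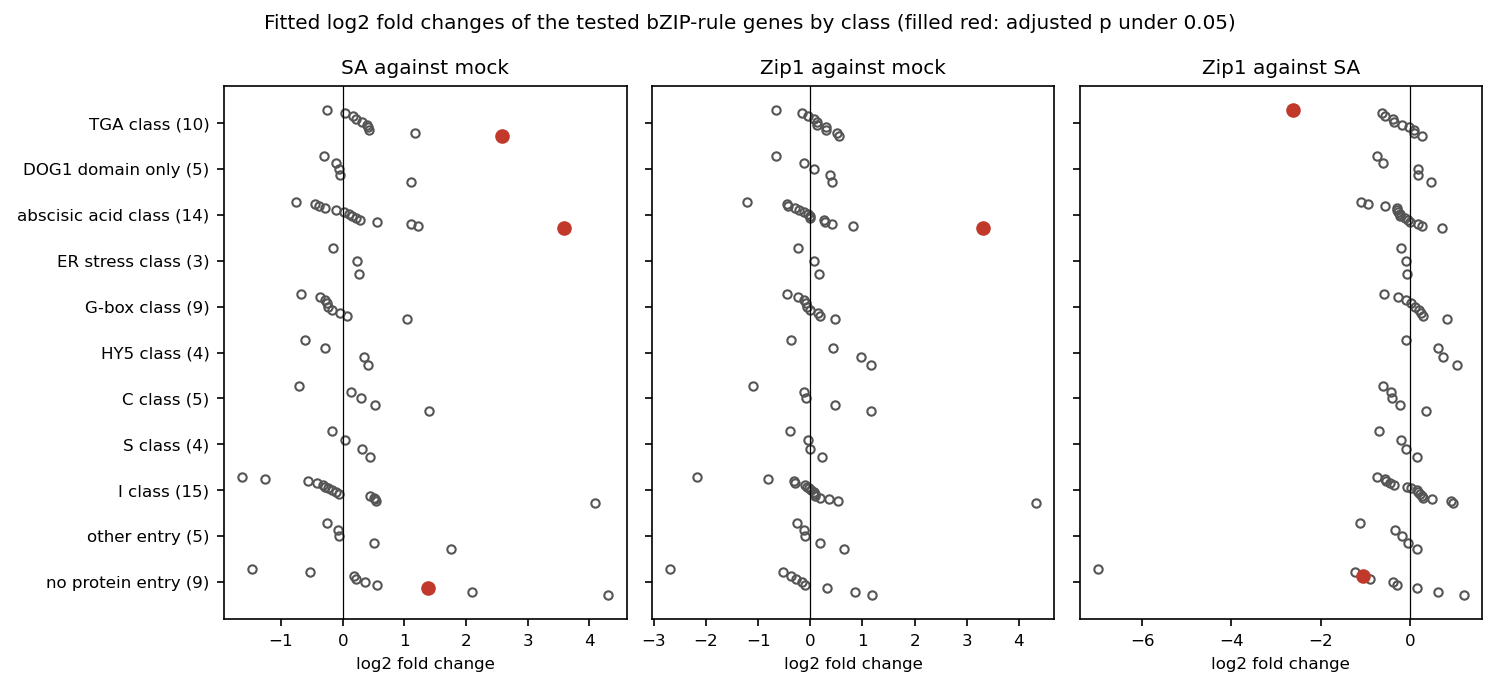
Fitted log2 fold change (horizontal axis) of each of the 83 tested genes, in rows by class, with SA over mock at left, Zip1 over mock in the middle and Zip1 over SA at right; the number in brackets counts the tested genes of a class. Filled red points passed an adjusted p under 0.05: 3 with SA, 1 with Zip1 and 2 between the treatments, while most open points lie near 0.

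Among the TGA class, 1 gene rose with SA, and its protein entry is that of a leaf patterning factor. Zm00001eb366880 (chromosome 8, 173318775 to 173326650, plus strand; build not given in the sources used here) shares with a second gene, on chromosome 3, the entry LG2, liguleless2, a protein that in maize is needed to place the ligule at the boundary of blade and sheath. It held 16.7, 43.4 and 11.8 normalised counts in mock leaves replicates 1 to 3, 131, 116 and 186 in SA leaves, and 33.4, 23.3 and 13.3 in Zip1 leaves. All SA libraries were above all others, and the Zip1 libraries lay within the range of mock. The means were 24.0 ± 17 in mock leaves, 144 ± 36.9 in SA leaves, and 23.4 ± 10.04 in Zip1 leaves (SD, n = 3). The rise with SA was 6.02-fold (log2 fold change 2.59, SE 0.56, adjusted p 0.0189 by edgeR), and Zip1 was lower than SA by the direct test (−2.63, SE 0.56, adjusted p 0.0262). Zip1 against mock gave −0.04, with a 95% interval of −1.26 to 1.18 that leaves room for more than a doubling in either direction. Both calls were lost when certain libraries were left out, while the estimates stayed large. The SA call was lost without mock replicate 1 (log2 fold change 2.39, adjusted p 0.0824), without mock replicate 3 (2.26, 0.0560) and without SA replicate 3 (2.36, 0.0787), which brought the called TGA genes to 0. The call between the treatments was lost without SA replicate 1 (−2.69, 0.0582), SA replicate 3 (−2.40, 0.0927), Zip1 replicate 2 (−2.63, 0.0808) or Zip1 replicate 3 (−2.34, 0.100). Calls over all genes also fell with a library left out, from 1436 to as few as 839 with SA and from 949 to as few as 456 between the treatments.

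The TGA genes that carry most of the transcript in these leaves were not called in any comparison. Highest was Zm00001eb015150 (chromosome 1, 51626175 to 51632242, minus strand), with the entry TGA2.2, a rice factor that binds the rice homologue of NPR1. It had 2656, 2255 and 2748 normalised counts in mock leaves, 3134, 2415 and 3040 in SA leaves, and 2898, 2521 and 2995 in Zip1 leaves. The groups overlapped, and the log2 fold change was 0.16 with SA (95% interval −0.18 to 0.51, adjusted p 0.650) and 0.14 with Zip1 (−0.21 to 0.49, adjusted p 0.838). In mock this gene took 39.6% of the summed level per length of the TGA class.

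A second gene with the TGA2.2 entry had the lowest p among the uncalled TGA genes in both comparisons with mock. Zm00001eb331170 (chromosome 7, 183196613 to 183202611, minus strand) had 1438, 1090 and 1329 normalised counts in mock leaves, 1706, 1551 and 1873 in SA leaves, and 1644, 1885 and 1971 in Zip1 leaves. Every treated library was above every mock library, and the treated groups overlapped each other. The log2 fold change was 0.41 with SA (SE 0.155, unadjusted p 0.0223, adjusted p 0.168) and 0.51 with Zip1 (SE 0.155, unadjusted p 0.00704, adjusted p 0.181), so that neither passed. The third TGA2.2 gene, Zm00001eb395640 on chromosome 9, had means of 1186 ± 145, 1467 ± 131 and 1296 ± 86.0 in mock, SA and Zip1 (adjusted p 0.290 with SA and 0.830 with Zip1). Zm00001eb332590 on chromosome 8, with the entry of the related rice factor TGA2.3, had 376 ± 35.9, 506 ± 80.5 and 394 ± 21.3. Its SA libraries were all above mock (log2 fold change 0.43, unadjusted p 0.0392, adjusted p 0.230), and its Zip1 libraries overlapped mock.

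The remaining tested members of the class were called in no comparison either. Zm00001eb431760 on chromosome 10, with the entry TGAL6 of the rice TGA-like series, had 733, 786 and 1251 normalised counts in mock leaves, 562, 946 and 802 in SA leaves, and 383, 859 and 524 in Zip1 leaves. Its groups overlapped, and its Zip1 estimate of −0.65 was the lowest in the class, with an interval of −1.35 to 0.05. Zm00001eb147220 on chromosome 3 also has the entry LG2 and had 122 ± 55.4, 125 ± 28.9 and 151 ± 35.4, with no call (log2 fold change 0.04 with SA, adjusted p 0.975). Both TGAL1 genes with enough counts, Zm00001eb150360 and Zm00001eb369280, and the TGAL8 gene Zm00001eb388270 had SA estimates of 0.39, 1.18 and 0.21 with adjusted p-values of 0.595, 0.484 and 0.877. Their groups overlapped. Over the 10 tested genes of the class, 9 had a positive estimate with SA and 7 with Zip1, beside 10656 and 11362 of the 23077 tested genes. The medians were 0.35 and 0.13, beside −0.04 and −0.01 for all tested genes. Both comparisons use the same mock libraries, and only LG2 on chromosome 8 was called. Summed per length, the class stood at 90.2, 78.0 and 93.8 CPM per kilobase in mock leaves, 109, 93.5 and 111 in SA leaves, and 94.2, 94.8 and 100 in Zip1 leaves. The highest mock library lay just above the lowest SA library, and the sum counts mainly the TGA2.2 genes.

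**Figure D2:**
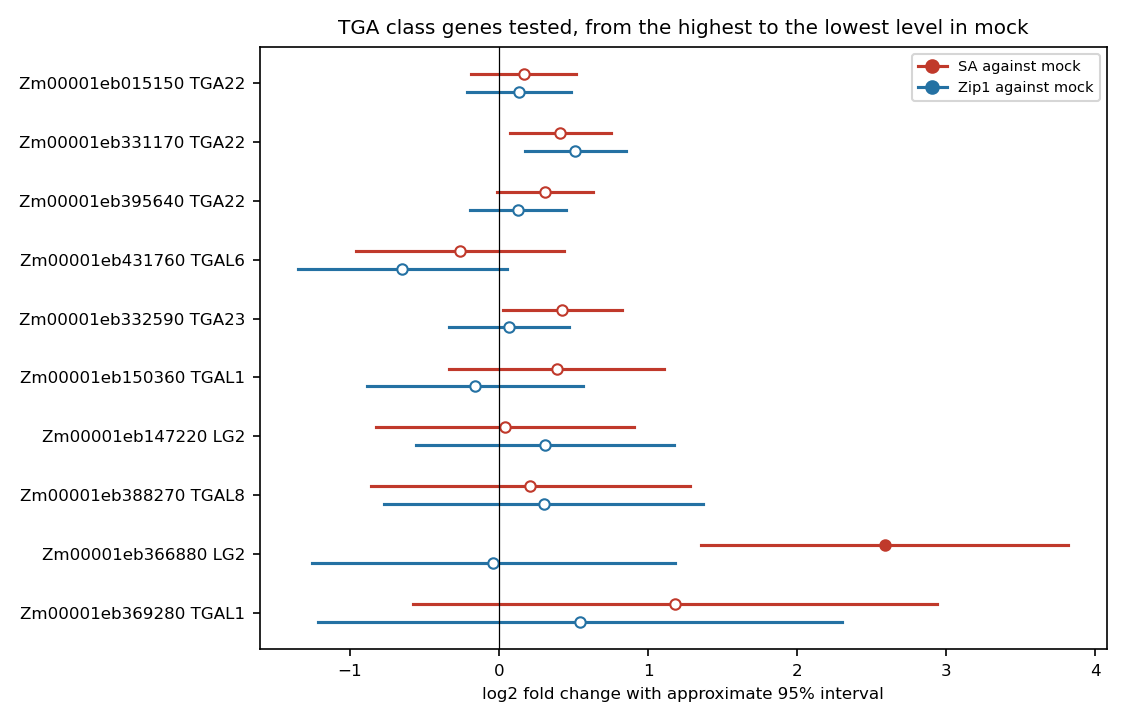
Log2 fold change with its approximate 95% interval (horizontal axis) for the 10 tested TGA class genes, ordered from the highest to the lowest level per length in mock, for SA (red) and Zip1 (blue) against mock; TGA22 and TGA23 are the entries of TGA2.2 and TGA2.3. The filled point is the only call, LG2 on chromosome 8 with SA at 2.59, and intervals widen toward the genes of low level at the bottom.

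No change was called with Zip1 in the TGA subgroup, where edgeR found 0 of 15, with 1 at an unadjusted p under 0.05 and 0 by DESeq2. The other 6 TGA class genes were too low to test. Zm00001eb288970 (TGAL5) had 42 counts over all 9 libraries, Zm00001eb094570 (TGAL7) 13, Zm00001eb101910 and Zm00001eb316720 (both TGA10, described in tobacco) 6 and 2, Zm00001eb406770 (TGAL11) 3, and Zm00001eb352420 (TGAL1) 0. With so few counts no difference was detectable at this depth.

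The 8 genes with a DOG1 domain only are named for DOG1, a regulator of seed dormancy in Arabidopsis. Of these, 5 were tested and edgeR called 0 in each comparison, with 0 at an unadjusted p under 0.05 and 0 by DESeq2. Zm00001eb339990 on chromosome 8, with no protein entry, had 40.7, 49.9 and 53.2 normalised counts in mock leaves, 108, 96.5 and 107 in SA leaves, and 14.5, 125 and 45.7 in Zip1 leaves. Its SA libraries were all above mock, but the spread in Zip1 was wide and the SA difference did not pass (log2 fold change 1.11, adjusted p 0.362). Zm00001eb249700 and Zm00001eb319230, entered as homologues of INAPERTURATE POLLEN 1, which shapes pollen apertures, had adjusted p-values of 0.767 and 0.980 with SA. Zm00001eb123660 (DOG1-like 2) and Zm00001eb123650 (no entry) lie over each other on opposite strands of chromosome 3. Whether the counting used the strand is not given in the sources used here, so their counts of 149 ± 82.9 and 89.5 ± 48.1 in mock cannot be told apart. The other 3, Zm00001eb355940 (entered as TGAL6), Zm00001eb295650 and Zm00001eb130290, had 46, 9 and 0 counts in all.

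The abscisic acid class held the gene called higher than mock in both treatments. Zm00001eb366900 (chromosome 8, 173334557 to 173339272, minus strand) is entered as the rice homologue of ABI5, which in Arabidopsis carries abscisic acid responses in seeds and seedlings. It had 5.22, 9.77 and 13.8 normalised counts in mock leaves, 115, 136 and 100.1 in SA leaves, and 50.1, 133 and 105 in Zip1 leaves. Every treated library was above every mock library, and the treated groups overlapped. The rise was 12-fold with SA (log2 fold change 3.59, SE 0.51, adjusted p 0.00189) and 9.89-fold with Zip1 (3.31, SE 0.51, adjusted p 0.0203), both against the same mock libraries. The direct comparison gave −0.28 (95% interval −1.26 to 0.69, adjusted p 0.818). The SA call passed in all 16 alternative fits. The Zip1 call was lost without mock replicate 1 (log2 fold change 3.01, adjusted p 0.113), mock replicate 2 (3.32, 0.0652) or Zip1 replicate 2 (2.99, 0.0614), and then 0 bZIP genes were called for Zip1. Over all genes, the 204 calls with Zip1 became 0, 41 and 56 without these libraries. In mock the raw counts were 5, 9 and 14, so that the size of the fold rests on few reads. The gene passed the count filter through its treated libraries, where it was high. Its calls against mock, also those in the alternative fits, thus add no support beyond these values.

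This ABI5 gene is a neighbour of the LG2 gene that rose with SA. The genes are 7906 bases apart, with LG2 on the plus and ABI5 on the minus strand so that they point at each other, and 1 gene lies between them. That gene, Zm00001eb366890, has no protein entry and had 421 ± 13.7, 381 ± 27.4 and 413 ± 71.9 normalised counts in mock, SA and Zip1 (log2 fold change −0.14 with SA, adjusted p 0.746). The 3 genes do not overlap. The same arrangement occurs once more on chromosome 3, where the LG2 gene Zm00001eb147220 (181612919 to 181621560, plus strand) and the ABI5 gene Zm00001eb147240 (181671908 to 181674078, minus strand) lie 50347 bases apart with 1 gene between them. That ABI5 gene had 47.0, 0 and 2.95 normalised counts in mock leaves, 28.2, 34.9 and 45.2 in SA leaves, and 73.5, 14.9 and 0 in Zip1 leaves. The SA libraries were close to each other while mock and Zip1 ranged widely, and no comparison passed (adjusted p 0.767 with SA and 0.909 with Zip1). Genes that share an entry may share sequence, and how reads with several matches were counted is not given in the sources used here.

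**Figure D3:**
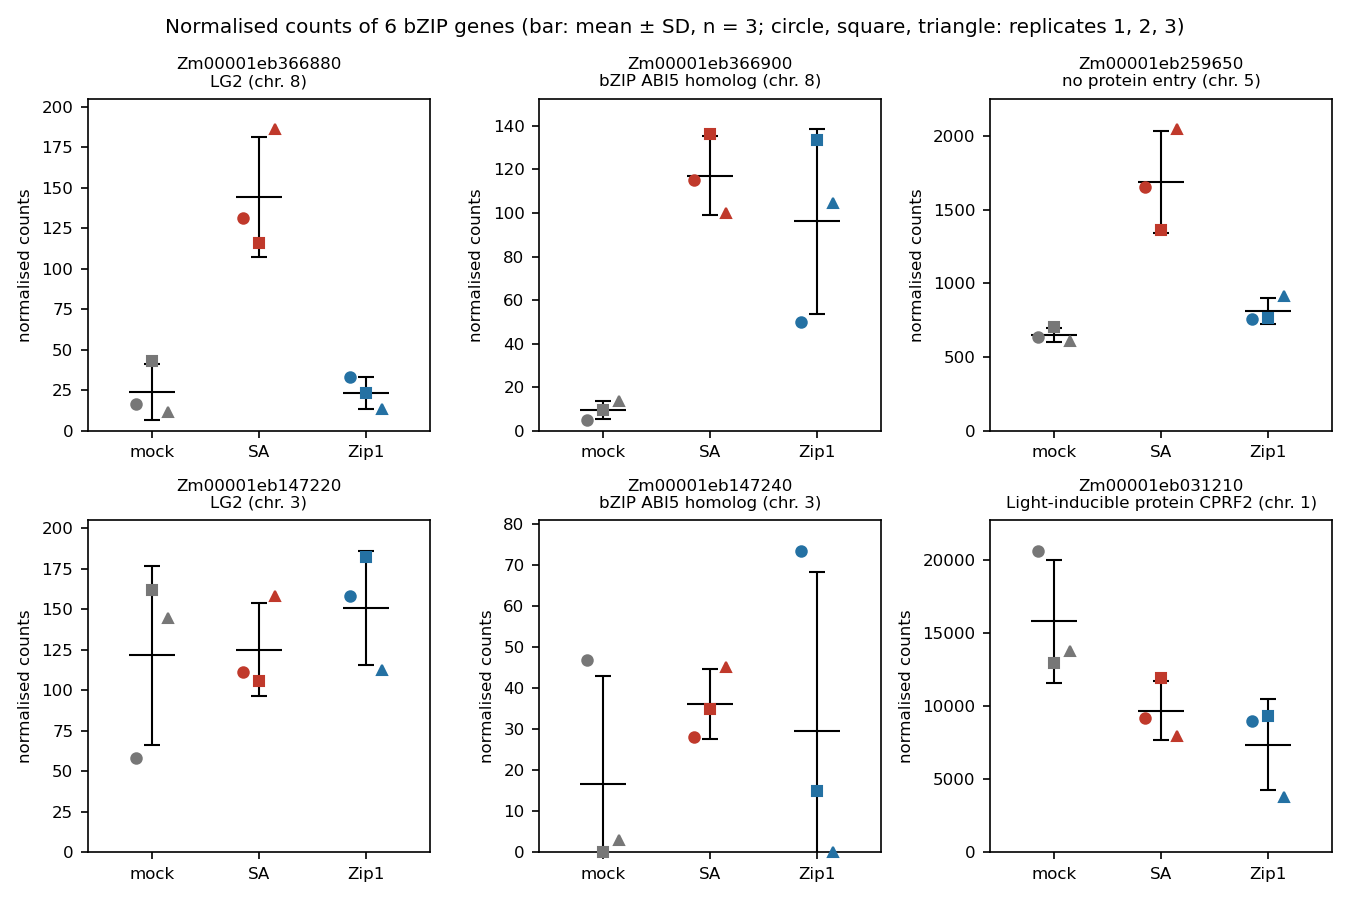
Normalised counts (vertical axis, from 0) in each library of mock, SA and Zip1 for 6 bZIP genes; symbols are replicates 1 to 3, and the horizontal line with its bar is the mean ± SD, drawn only down to 0. In the upper row LG2 on chromosome 8 and the gene with no entry stand high in SA only and ABI5 on chromosome 8 stands high in SA and Zip1, while the chromosome 3 genes below do not separate the groups.

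Of the other abscisic acid genes none was called, although 1 lay near the threshold with SA. Zm00001eb348490 (chromosome 8, 102653750 to 102657401, plus strand), entered as bZIP12, a rice factor of abscisic acid and stress responses, had 68.9, 54.3 and 89.6 normalised counts in mock leaves, 106, 175 and 213 in SA leaves, and 84.6, 93.4 and 79.0 in Zip1 leaves. All SA libraries were above all mock and Zip1 libraries. The log2 fold change with SA was 1.22 (SE 0.348, adjusted p 0.0696), and it passed by DESeq2 (adjusted p 0.0132) and without SA replicate 1 (0.0428). The 3 genes entered as TRAB1, a rice factor activated by abscisic acid (Zm00001eb314860, Zm00001eb100750 and Zm00001eb038010), had SA estimates of −0.45, 0.01 and 0.15 and overlapping groups. Medians over the 14 tested genes were 0.13 with SA and −0.03 with Zip1.

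The lowest p with SA in the whole set was that of a gene with no protein entry. Zm00001eb259650 (chromosome 5, 225957320 to 225958472, plus strand) carries a bZIP domain and had 640, 702 and 610 normalised counts in mock leaves, 1657, 1363 and 2047 in SA leaves, and 756, 767 and 912 in Zip1 leaves. The SA libraries stood above all others, and the Zip1 libraries stood above mock by a small margin. The rise with SA was 2.59-fold (log2 fold change 1.38, SE 0.175, adjusted p 0.000982), Zip1 was lower than SA (−1.06, SE 0.173, adjusted p 0.00733), and Zip1 against mock did not pass (0.32, SE 0.173, adjusted p 0.541). The first 2 calls passed in all 16 alternative fits. Its level in mock was 18.9 ± 1.36 CPM per kilobase, so the call does not rest on few reads. Another gene without an entry, Zm00001eb299280 (chromosome 7, 3148276 to 3149181, plus strand), had 15.2, 13.0 and 19.4 normalised counts in SA, 0, 0 and 1.97 in mock and 0 in every Zip1 library. That is at least 5.28-fold higher in SA than in Zip1, against a floor of 3 counts per library. The direct comparison missed the threshold (adjusted p 0.0644), and it passed by DESeq2 (0.0115) and with a stricter filter on counts (0.0336). The gene entered the test through its SA libraries alone, so these calls are no support for a difference. Zm00001eb021750, entered as bZIP29 and picked after its values were seen for the largest Zip1 estimate, had 0, 0 and 1 counts in mock leaves, 1, 13 and 11 in SA leaves, and 15, 10 and 2 in Zip1 leaves. It entered the test through treated libraries alone and passed in no comparison.

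The most abundant bZIP transcripts in the leaf came from 4 genes, which took 70.6% of the summed level per length in mock. Zm00001eb264930 (chromosome 6, 32025001 to 32025621, minus strand; no protein entry) stood at 437 ± 80.4 CPM per kilobase in mock leaves, 508 ± 97.6 in SA leaves, and 393 ± 14.8 in Zip1 leaves. Zm00001eb031210, entered as the light-inducible parsley factor CPRF2, stood at 324 ± 86.7 in mock. Zm00001eb028430, entered as the maize factor OCS1 that binds ocs elements, stood at 226 ± 36.6, and Zm00001eb389660, entered as RISBZ5 of the rice seed storage protein factors, at 190 ± 21.7. In mock the libraries of the first and second gene overlapped, as did those of OCS1 and RISBZ5, whereas those of CPRF2 lay above those of OCS1. The next gene, Zm00001eb209070, entered as the Arabidopsis factor bZIP53, stood far lower at 41.9 ± 4.6. In all, 62 genes reached 1 CPM per kilobase in mock and 22 reached 10.

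**Figure D4:**
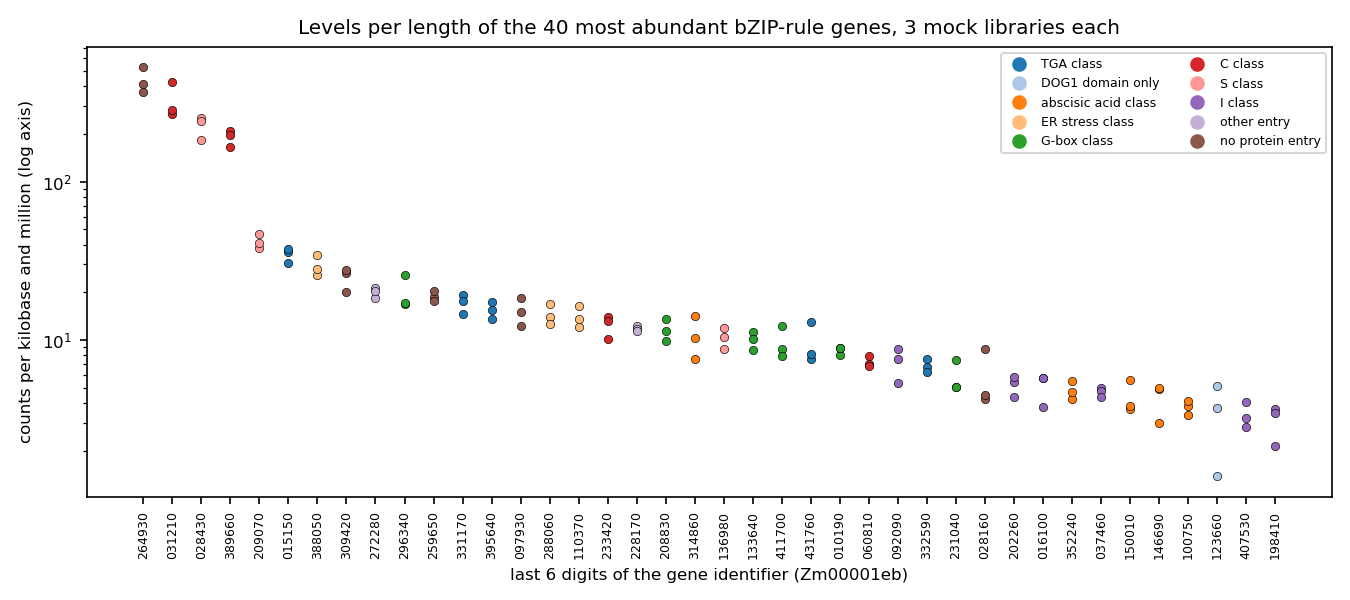
CPM per kilobase (vertical log axis) in the 3 mock libraries for the 40 most abundant genes of the set, ordered by their mean and coloured by class; the horizontal axis gives the end of the gene identifier. The first 4 genes stand at 166 or higher in every library, the next averages 41.9, and TGA class genes (dark blue) start with Zm00001eb015150 at 34.6.

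Of these abundant genes, CPRF2 had the largest estimates in both comparisons with mock. Zm00001eb031210 (chromosome 1, 174624195 to 174629114, plus strand) had 20669, 12962 and 13816 normalised counts in mock leaves, 9233, 11925 and 7982 in SA leaves, and 9014, 9320 and 3786 in Zip1 leaves. Every treated library was below every mock library. The log2 fold change was −0.70 with SA (SE 0.328, adjusted p 0.280) and −1.10 with Zip1 (SE 0.331, unadjusted p 0.00686, adjusted p 0.178), and the Zip1 difference passed by DESeq2 (adjusted p 0.0221). RISBZ5 (Zm00001eb389660) had 12917, 12175 and 10304 in mock leaves, 13239, 11405 and 18603 in SA leaves, and 12896, 10256 and 9217 in Zip1 leaves, with overlapping groups. CPRF2 and RISBZ5 make up most of the C class, whose summed level was 535 ± 103 CPM per kilobase in mock leaves, 460 ± 34.8 in SA leaves, and 349 ± 84.5 in Zip1 leaves.

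Within the C class, edgeR called 0 of 5 tested genes with SA, 2 at an unadjusted p under 0.05 and 1 by DESeq2. The latter was Zm00001eb060860 (chromosome 1, 295037654 to 295042431, minus strand), entered as the seed storage factor RISBZ2, with 55.3, 51 and 48.2 normalised counts in mock leaves, 147, 155 and 104 in SA leaves, and 160, 51.3 and 137 in Zip1 leaves. All SA libraries were above all mock libraries, and Zip1 replicate 2 stood at the level of mock. The SA log2 fold change was 1.39 (adjusted p 0.0850 by edgeR and 0.0214 by DESeq2), and it also passed without Zip1 replicate 2 (0.0296) and in a fit on the SA and mock libraries alone (0.0444). A second RISBZ2 gene, Zm00001eb060810, lies 104548 bases away and had 377 ± 29.8, 413 ± 122 and 525 ± 238 in mock, SA and Zip1, with no call. In the S class, which pairs with C class factors, OCS1 (Zm00001eb028430) and bZIP53 (Zm00001eb209070) had SA estimates of −0.17 (95% interval −0.53 to 0.19) and 0.05 (−0.38 to 0.47). For Zip1 the intervals were −0.36 to 0.36 and −0.48 to 0.38.

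The G-box class, whose members bind the G-box element of light and stress promoters, had 0 of 9 called by edgeR with SA, 3 at an unadjusted p under 0.05 and 1 by DESeq2. The latter was Zm00001eb157860, entered as CPRF1 (103 ± 10.7 in mock and 211 ± 29.7 in SA, log2 fold change 1.04, adjusted p 0.0861 by edgeR and 0.0257 by DESeq2). Zm00001eb231040 (chromosome 5, 76176431 to 76181309, plus strand), entered as HBP-1a, a wheat factor of histone gene promoters, went the other way. It had 286, 423 and 287 normalised counts in mock leaves, 202, 243 and 177 in SA leaves, and 352, 358 and 397 in Zip1 leaves. Its SA libraries were below all others. The log2 fold change was −0.68 with SA (adjusted p 0.114) and 0.83 for Zip1 against SA (SE 0.224, adjusted p 0.0682), and the latter passed by DESeq2 (0.0233).

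In the HY5 class, the light-signalling factors, the summed level was 3.66 ± 1.16 CPM per kilobase in mock, and edgeR called 0 of 4 in any comparison. At an unadjusted p under 0.05 there was 1, in the direct comparison, and DESeq2 called 0. That gene, Zm00001eb122740, had 75.3 ± 32.4 in mock leaves, 48.9 ± 21.4 in SA leaves, and 102 ± 4.72 in Zip1 leaves (log2 fold change 1.06 for Zip1 against SA, adjusted p 0.233). All 3 genes of the ER stress class were tested. Zm00001eb388050, entered as the rice factor bZIP50, had 1465 ± 217, 1751 ± 381 and 1529 ± 484 in mock, SA and Zip1 (95% interval of the SA log2 fold change −0.29 to 0.80), and the estimates of the class lay between −0.16 and 0.26 with SA and between −0.25 and 0.17 with Zip1. EdgeR called 0 of the 3 in each comparison, with 0 at an unadjusted p under 0.05 and 0 by DESeq2.

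The I class, which includes VIP1 (which moves into the nucleus upon osmotic change in Arabidopsis) and the RF2 factors of rice vascular tissue, had 15 tested genes and 0 calls by edgeR in each comparison. At an unadjusted p under 0.05 there were 3 with SA, 2 with Zip1 and 2 between the treatments, and DESeq2 called 0 in each. None of the 3 VIP1 genes was called. Zm00001eb202260 had 275 ± 39.8, 401 ± 30.7 and 314 ± 26.2 in mock, SA and Zip1, Zm00001eb092090 had 383 ± 91.2, 520 ± 34.8 and 356 ± 37.5, and Zm00001eb407530 had 177 ± 32.6, 169 ± 13.7 and 101 ± 25.8. Their smallest adjusted p-values were 0.138, 0.193 and 0.191. The pair entered as bZIP19, a zinc-deficiency factor of Arabidopsis (Zm00001eb272280 and Zm00001eb228170), had SA estimates of −0.26 and −0.06.

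Partners and target families of TGA factors are given next by counts and medians beside all tested genes. The NPR1 family includes SA receptors and coactivators that bind TGA factors. Its list was drawn by protein name or domain, so not every member need be an SA receptor, and 6 genes were tested. With SA 3 rose and 0 fell (50%, beside 6.22% of all tested genes), with Zip1 1 rose (16.7% beside 0.884%), and 3 were lower with Zip1 than with SA (50% beside 4.11%). The median log2 fold changes were 0.67, 0.23 and −0.92, beside −0.04, −0.01 and 0.01 for all tested genes. Zm00001eb148670, entered as NPR4, went from 353 ± 51.5 normalised counts in mock to 1874 ± 157 with SA (log2 fold change 2.41, adjusted p 5.91e-05) and 992 ± 197 with Zip1 (1.49, adjusted p 0.0124). It was the only Zip1 call of the list. Its entry names ankyrin repeats alone, whereas the other tested entries also name a BTB/POZ domain, so its place in the family is uncertain. The NPR3 entry Zm00001eb065420 and the NPR2 entry Zm00001eb370160 rose by 1.51 (adjusted p 0.000909) and 0.81 (adjusted p 0.0185) with SA, while the NPR1 entry Zm00001eb121040 had 110 ± 35.4 in mock and 132 ± 19.9 in SA (adjusted p 0.793). Zm00001eb125390, entered as NRR, a rice repressor that binds NPR1, had 1.06 ± 1.04 in mock, 159 ± 31.5 in SA (adjusted p 0.000693) and 0.622 ± 1.08 in Zip1. This gene entered the test through its SA libraries alone, so the call adds no support beyond these values.

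Glutaredoxins, whose CC type binds TGA factors in Arabidopsis, numbered 42 tested genes. The list was drawn by the shared domain, and the CC type was not separated. It also holds chloroplast and mitochondrial entries and uncharacterized proteins, so its shares do not describe TGA partners alone. With SA 7 rose and 0 fell (16.7%, beside 6.22% of all tested genes), with a median of 0.21 beside −0.04. Between the treatments 4 were lower with Zip1 (9.52% beside 4.11%), with a median of −0.11 beside 0.01. The 7 and the 4 include Zm00001eb337720 (1.39 ± 2.41 in mock, 59.6 ± 40.7 in SA and 0 in Zip1). That gene entered the test through its SA libraries alone, so its calls add no support. With Zip1 against mock edgeR called 0, with 5 at an unadjusted p under 0.05 and 0 by DESeq2. The list of glutathione S-transferases, a family with as-1 or ocs elements in known promoters, held 32 tested genes. It includes the elongation factor 1-gamma genes Zm00001eb385150, Zm00001eb205160 and Zm00001eb240090, taken in by a shared domain and called in no comparison. With SA 15 of the 32 rose and 0 fell (46.9% beside 6.22%), with a median of 1.62 beside −0.04 for all tested genes. Of the same 32, 1 rose with Zip1 by edgeR and 10 by DESeq2 (3.12% by edgeR beside 0.884%, median 0.76 beside −0.01), and 10 were lower with Zip1 than with SA (31.2% beside 4.11%, median −0.80 beside 0.01). The Zip1 call was Zm00001eb419190, with 66.2 ± 17.6 normalised counts in mock leaves, 1229.9 ± 553 in SA leaves, and 346 ± 156 in Zip1 leaves (adjusted p 0.0373 with Zip1).

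Lists around the other classes are set beside the same backgrounds. Receptors, phosphatases and kinases of abscisic acid signalling numbered 39 tested genes, of which 2 rose and 0 fell with SA (5.13%, near the 6.22% of all tested genes, with a median of 0.10 beside −0.04). These were Zm00001eb356420, a phosphatase entered as PP2C50 (log2 fold change 0.81, adjusted p 0.00653), and the kinase SAPK8 gene Zm00001eb214180 (0.71, adjusted p 0.0303). With Zip1 edgeR called 0, with 7 at an unadjusted p under 0.05 and 0 by DESeq2 (median −0.13 beside −0.01). Between the treatments 2 were lower with Zip1 (5.13% beside 4.11%, median −0.15 beside 0.01), the receptor PYL3 gene Zm00001eb204180 (−0.60, adjusted p 0.0313) and the kinase SAPK1 gene Zm00001eb392580 (−0.97, adjusted p 0.0182).

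Among 29 ER folding genes 2 rose and 1 fell with SA (10.3% beside 6.22%, median −0.07 beside −0.04). Between the treatments 2 were higher and 1 lower with Zip1 (10.3% beside 4.11%, median 0.25 beside 0.01). With Zip1 against mock 1 fell (3.45% beside 0.884%, median 0.28 beside −0.01), the calreticulin entry Zm00001eb292290 (log2 fold change −0.95, adjusted p 0.0227). At an unadjusted p under 0.05 there were 9, DESeq2 called 3 higher and 1 lower, and 19 of the 29 estimates were positive. Among 31 light pathway genes (COP1, SPA and BBX proteins and phytochromes), 1 rose and 1 fell with SA (6.45%, near the 6.22% of all tested genes, median −0.12 beside −0.04). With Zip1 edgeR called 0, with 1 at an unadjusted p under 0.05 and 1 by DESeq2 (median 0.06 beside −0.01). Between the treatments 1 was higher and 2 were lower with Zip1 (9.68% beside 4.11%, median 0.22 beside 0.01). The SA changes were in BBX22 (Zm00001eb120740, 0.92, adjusted p 0.00610) and phytochrome B (Zm00001eb396030, −0.73, adjusted p 0.0442).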

How the data were processed

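The authors deposited raw counts per gene, 1 column for each of the 9 libraries, with 0 columns left without a library. The submitters' processing notes list HISAT2 2.0.5, featureCounts 1.5.0-p3 and DESeq2 1.20.0, without roles; build, annotation and strand setting are not given in the sources used here. The table held 1 blank line, which was skipped. A table of FPKM values with damaged decimal points was not used here.

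Counts were fitted with edgeR 4.0.16 in R 4.3.3 (filterByExpr, TMM factors 0.910 to 1.10, robust quasi-likelihood F test, group as the only term), with p-values adjusted over 23077 genes. The biological coefficient of variation was 34.4%. Standard errors and 95% intervals are approximate. Alternatives were DESeq2 1.42.0, RLE scaling, 2 filters, no robust estimation, the 6 libraries compared, the replicate block, an adjusted p under 0.01, and each library left out. Deviations from the group means of same-numbered SA and mock libraries correlated at 0.154, 0.164 and 0.130, and all other SA and mock pairs below 0. Deviations within a group sum to 0, which by itself lowers the other pairs when same-numbered pairs are positive. The library names carry the same letter for mock, SA and Zip1 at each number, and what the letter stands for is not given. The numbers were taken to pair SA with mock, which comes from the data. The main test did not use this pairing, and the replicate block covered all 9 libraries. Replicate libraries all differed by more than sampling noise (chi-square per degree of freedom 47.7 to 105).

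The members, classes and lists were chosen with earlier results of these data known. All genes of the TGA subgroup were named, other bZIP genes if called, the 5 most abundant, and the 2 nearest to the threshold in each comparison; further members were chosen after their values were seen. CPRF2 was placed with the C class because it shares a domain with RISBZ2. The floor of 3 counts covers counting error only, since reads carried no molecular identifiers.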

Additional observations from a re-analysis of the deposited data

How the results depend on the processing

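No estimate of a named gene reversed under any alternative where it was called. Called bZIP genes with SA (3) became 7 by DESeq2 and 2 to 4 with 1 library left out; with Zip1 (1), 2 by DESeq2, 0 at an adjusted p under 0.01 and 0 to 1 with 1 library left out; for Zip1 against SA (2), 4 by DESeq2, 1 at an adjusted p under 0.01 and 1 to 2 with 1 library left out. The TGA subgroup gave 0 with SA and 0 for Zip1 against SA at an adjusted p under 0.01, and 0 to 1 in both with 1 library left out. Over all genes, calls with SA (1436) became 2384 by DESeq2, 662 at an adjusted p under 0.01 and 839 to 1414 with 1 library left out. With Zip1 (204) they became 889, 4 and 0 to 243, and for Zip1 against SA (949) they became 1970, 296 and 456 to 960. With the replicate block, bZIP calls were 5 with SA, 1 with Zip1 and 3 for Zip1 against SA, where Zm00001eb231040 was added (log2 fold change 0.85, adjusted p 0.0400), and calls over all genes were 2220, 574 and 1553. Whether the replicate numbers also pair Zip1 with mock or with SA was not settled. Same-number correlations were 0.160, 0.0745 and 0.158 with mock and 0.0759, 0.157 and 0.0870 with SA. These values exceeded all other pairs, which reached at most 0.0435 with mock and 0.0387 with SA. The block included the Zip1 libraries and changed no other count of the bZIP or TGA genes. RLE scaling, other filters, no robust estimation, the 6-library fits and the Family-column definition of members, which was added after seeing the data, kept all counts within 1.5 times. The causes of these differences were not tested. Depth limits genes such as LG2, ABI5 and Zm00001eb299280, whose lower groups held few counts, and the 41 genes not tested.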

Other observations

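A column of the count table that assigns transcription factor families listed 126 genes as bZIP, of which 116 were among the genes described above. The other 10 lacked the Pfam domains of the rule. Of these, 8 were tested and edgeR called 0 in any comparison. They included an entry for TGA10 (Zm00001eb236380, 140 counts in all libraries, log2 fold change 1.41 with SA, adjusted p 0.358) and an entry for TGAL4 (Zm00001eb197040, 73 counts, log2 fold change −1.05 with SA, adjusted p 0.756).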
